A study of Mus musculus with 35 samples.

Results

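The response of IAMP-depleted cardiac fibroblasts (CFs) to IL-17 was read from 6 of the 35 RNA-Seq libraries of the series, 3 of CFs given the siRNA IAMP-siR-1 (siR-1) and IL-17, and 3 of CFs given siR-1 alone. The members were chosen by the labels only, and every gene of the table was followed. The cells are labelled as CFs of adult mice, and the labels of these libraries give no strain, sex or age. The labels give 24 h of siRNA followed by 24 h of IL-17 for the stimulated cells, and no times for the untreated ones. Both groups carried siR-1, so the comparison gives what IL-17 went with in cells depleted of IAMP, a micropeptide encoded by 4930523C07Rik. The same comparison was made in 6 libraries of cells with a scrambled siRNA (Scrambled) and in 6 with a second siRNA against IAMP (siR-2), and 3 further siR-1 libraries were labelled as given TGF-β. The hearts of the series were not used here. Untreated and IL-17 libraries were deposited in separate tables, so the stimulus and anything else that differed between the tables cannot be told apart in a response. A shift between tables that was equal under all siRNAs drops out of the differences between responses. The sources used here do not say that the 3 libraries of a group came from separate cultures, so p values measure the spread between these libraries, which may be technical.

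IL-17 is a cytokine of T cells that acts on stromal and epithelial cells through the receptor pair IL17RA and IL17RC. The adaptor ACT1, encoded by Traf3ip2, recruits TRAF6 to activate NF-κB, and also stabilizes short-lived mRNAs of chemokines and cytokines. The C/EBP factors and IκBζ, encoded by Nfkbiz, then carry much of the transcription of the target genes, among them neutrophil-attracting CXC chemokines, colony-stimulating factors and IL-6. In fibroblasts IL-17 is known for recruiting myeloid cells through these products.

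Libraries of the siR-1 cells held 115485556 to 117182336 estimated counts without and 114219738 to 115931780 with IL-17, where a single read pair stands for about 6 estimated counts. Levels are given in CPM, the estimated counts relative to the total of the library after TMM scaling. IAMP mRNA itself was at 2.51, 3.5 and 2.96 CPM in the untreated and 2.34, 2.88 and 2.54 CPM in the IL-17 siR-1 libraries, against 22, 22.6 and 25.7 CPM and 18.5, 20.7 and 16.8 CPM under Scrambled. All 6 siR-1 libraries lay below all Scrambled libraries, and the 2 siR-1 groups overlapped. Among markers of CFs, all 12 were present, with Pdgfra, a receptor of fibroblasts, from 412 ± 15.8 to 436 ± 8.53 CPM and Tcf21, a transcription factor of CFs, from 193 ± 4.53 to 144 ± 2.85 CPM. Of 12 cardiomyocyte markers 7 were at or under the floor of 18 estimated counts, the value of 3 read pairs, in every siR-1 library, including Myh6 and Myh7, and the summed level of all 12 was 42.4 to 47.4 CPM without and 32.4 to 35.6 CPM with IL-17, mostly Tnnt2. All 8 lymphocyte markers, all 5 adipocyte markers, all 6 erythroid markers and 6 of 7 neutrophil markers were at or under that floor, and 3 of the 7 neutrophil markers were at 0. The summed level of 12 macrophage markers was 62.4 to 65.9 CPM without and 70.2 to 75.7 CPM with IL-17, where 2 of 12 rose and none was at 0, with Ptprc, the leukocyte antigen CD45, from 0.653 ± 0.367 to 0.925 ± 0.199 CPM. The summed level of 10 endothelial markers was 73.2 to 77.8 CPM without and 65.1 to 71.8 CPM with IL-17, where 2 of 10 fell, and that of 8 mesothelial and epicardial markers was 132 to 138 and 108 to 110 CPM, where 3 fell. The summed level of 9 markers of smooth muscle cells and pericytes was 75.2 to 81.3 CPM without and 106 to 111 CPM with IL-17, where 2 rose and 2 fell. That sum rose mostly through Cspg4 (from 49.1 ± 2.79 to 69.7 ± 1.43 CPM) and Notch3 (from 15.7 ± 0.581 to 27.7 ± 0.874 CPM). These rises and falls are at an adjusted p of at most 0.05 at any size, which 7.15% of all genes tested passed upward and 8.91% downward. The part of these cells in the results was not tested. In such bulk samples, a change in the share of a cell type and a change of RNA per cell cannot be told apart.

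IL-17 under siR-1 went with a rise of neutrophil-attracting chemokines, colony-stimulating factors, IL-6 and the NF-κB factors and inhibitors, and with falls that were smaller, among them Lbh, Gas1 and Osr1. In the fit of 21219 genes, 260 genes (1.23%) rose and 119 (0.561%) fell. Such a call required an adjusted p no higher than 0.05 together with a change of 1 or more on the log2 scale. At any size of change, 1518 genes (7.15%) were higher and 1891 (8.91%) lower, with a median response over all genes of -0.0031 on the log2 scale. The list counts below are to be read beside these shares. The share of all genes tested whose groups did not overlap is not given here. A lack of overlap named below therefore describes the libraries of that gene and is no further test. With at least 5 CPM on average in the higher group, 125 genes were called higher and 37 lower, 33 of the higher genes rose by 2 or more on the log2 scale, and no called fall was as large. Of the 260 genes called higher, 42 had at most 18 estimated counts in each untreated library, and for such genes the fitted fold change depends on the prior count. The test is the quasi-likelihood test of edgeR, adjusted by the method of Benjamini and Hochberg over all genes tested. Values are means ± SD of 3 libraries or log2 changes ± SE.

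**Figure D1:**
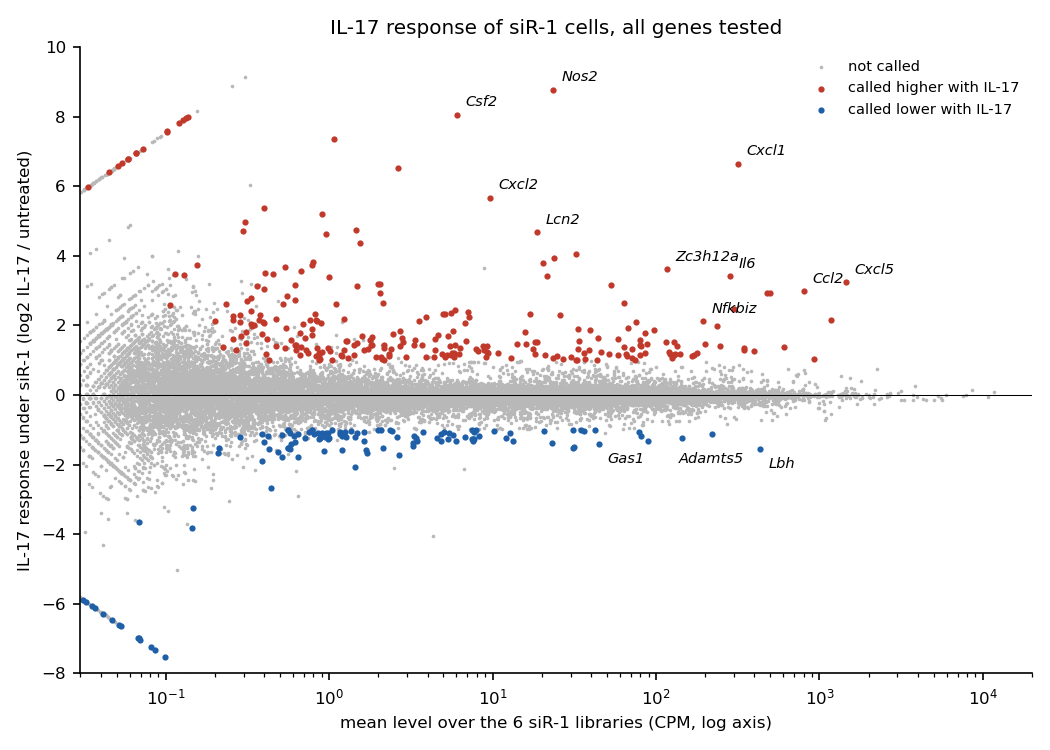
Response to IL-17 in siR-1 cells (y axis, log2 of IL-17 over untreated) against the mean level of the gene over the 6 siR-1 libraries (x axis, CPM, log axis), with 1 point per gene tested, red for the 260 genes called higher and blue for the 119 called lower. Rises reach beyond 3 on the log2 scale for genes above 100 CPM, such as Cxcl5, Il6 and Zc3h12a, while no fall of a gene at or above 5 CPM that was called reached 2. The straight diagonal runs at the left are genes with 0 counts in 1 group.

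Chemokines of the CXC family, some of which attract neutrophils, had the highest median of the 21 pathway lists. Of 16 genes, which include the related CX3C gene Cx3cl1, 12 were tested, 6 were called higher and 0 lower, and at any size 7 rose and 1 fell, with a median response of 1.53. Cxcl1, a ligand of the neutrophil receptor CXCR2 (chr5:90891241-90893115, GRCm38), was at 7.15, 5.05 and 6.6 CPM in the untreated and 625, 608 and 651 CPM in the IL-17 libraries. Its untreated and IL-17 libraries did not come near each other, and the change was 6.65 ± 0.123 on the log2 scale, adjusted p = 8.02e-14, a fold of 100. Cxcl5, another ligand of CXCR2 (chr5:90759360-90761624), was at 284, 284 and 274 CPM in the untreated and 2691, 2534 and 2717 CPM in the IL-17 libraries. It changed by 3.24 ± 0.0426 on the log2 scale, adjusted p = 4.12e-26. The groups were again far apart, and Cxcl5 already was expressed before IL-17. Cxcl2 (chr5:90903871-90905938) was at 0.114, 0.56 and 0.444 CPM in the untreated and 19.7, 19.1 and 18.1 CPM in the IL-17 libraries (5.67 ± 0.394 on the log2 scale, adjusted p = 1.54e-07). Cxcl3 (chr5:90786103-90789600) was at 2.56, 2.4 and 3.32 CPM in the untreated and 38.9, 35.2 and 39.9 CPM in the IL-17 libraries (3.78 ± 0.142 on the log2 scale, adjusted p = 2.71e-12). These 4 genes share a stretch of chromosome 5, and all IL-17 libraries lay above all untreated ones for each of them. For Cxcl1, Cxcl2 and Cxcl3 the choice of the largest rises required this. Cxcl16, a membrane-bound chemokine, rose from 28.7 ± 1.78 to 123 ± 1.6 CPM (2.10 ± 0.0678 on the log2 scale, adjusted p = 1.70e-15). Cxcl12, a constitutive chemokine of stromal cells, fell from 373 ± 6.57 to 297 ± 8.73 CPM (-0.33 ± 0.0407 on the log2 scale, adjusted p = 7.30e-07). Cxcl10, an interferon-induced chemokine, was at 5.06, 1.98 and 7.59 CPM in the untreated and 7.52, 9.07 and 11.9 CPM in the IL-17 libraries and did not pass the test (adjusted p = 0.36). Cxcl11 was called higher from 0 counts in each untreated library to a mean of 0.117 CPM with IL-17, a level of a few read pairs, and Pf4, platelet factor 4, rose by 0.39 on the log2 scale (adjusted p = 0.00134).

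The CC family, whose members attract monocytes and T cells, had 15 of 18 genes tested, 4 called higher and 0 lower, 6 rising at any size and a median of 1.14. As 9 of the 15 did not pass, this median is no typical rise. It was 1.41 under Scrambled and 0.36 under siR-2. Ccl2, the main monocyte chemokine (chr11:82035571-82037453), was at 188, 171 and 182 CPM in the untreated and 1410, 1406 and 1448 CPM in the IL-17 libraries. It changed by 2.98 ± 0.0553 on the log2 scale, adjusted p = 6.45e-18. Ccl7, which also attracts monocytes (chr11:82045712-82047525), was at 116, 113 and 120 CPM in the untreated and 874, 866 and 907 CPM in the IL-17 libraries. Its change was 2.92 ± 0.0477 on the log2 scale, adjusted p = 3.24e-22. Both genes lie on chromosome 11 and neither showed any overlap between the groups. Ccl20, the ligand of CCR6 on T helper 17 cells (chr1:83116766-83119167), was at 2.81, 3.3 and 2.64 CPM in the untreated and 45.5, 44.6 and 43.6 CPM in the IL-17 libraries (3.93 ± 0.196 on the log2 scale, adjusted p = 4.70e-10). The eosinophil chemokine Ccl11 was called higher too, on 9 to 27 estimated counts without and 53 to 91 with IL-17 (ratio 4.33, 95% counting interval 1.97 to 10.8), so that only a few read pairs carried it. Ccl9 (log2 0.29, adjusted p = 0.0111) and Ccl25 (log2 0.37, adjusted p = 0.00916) rose by less.

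**Figure D2:**
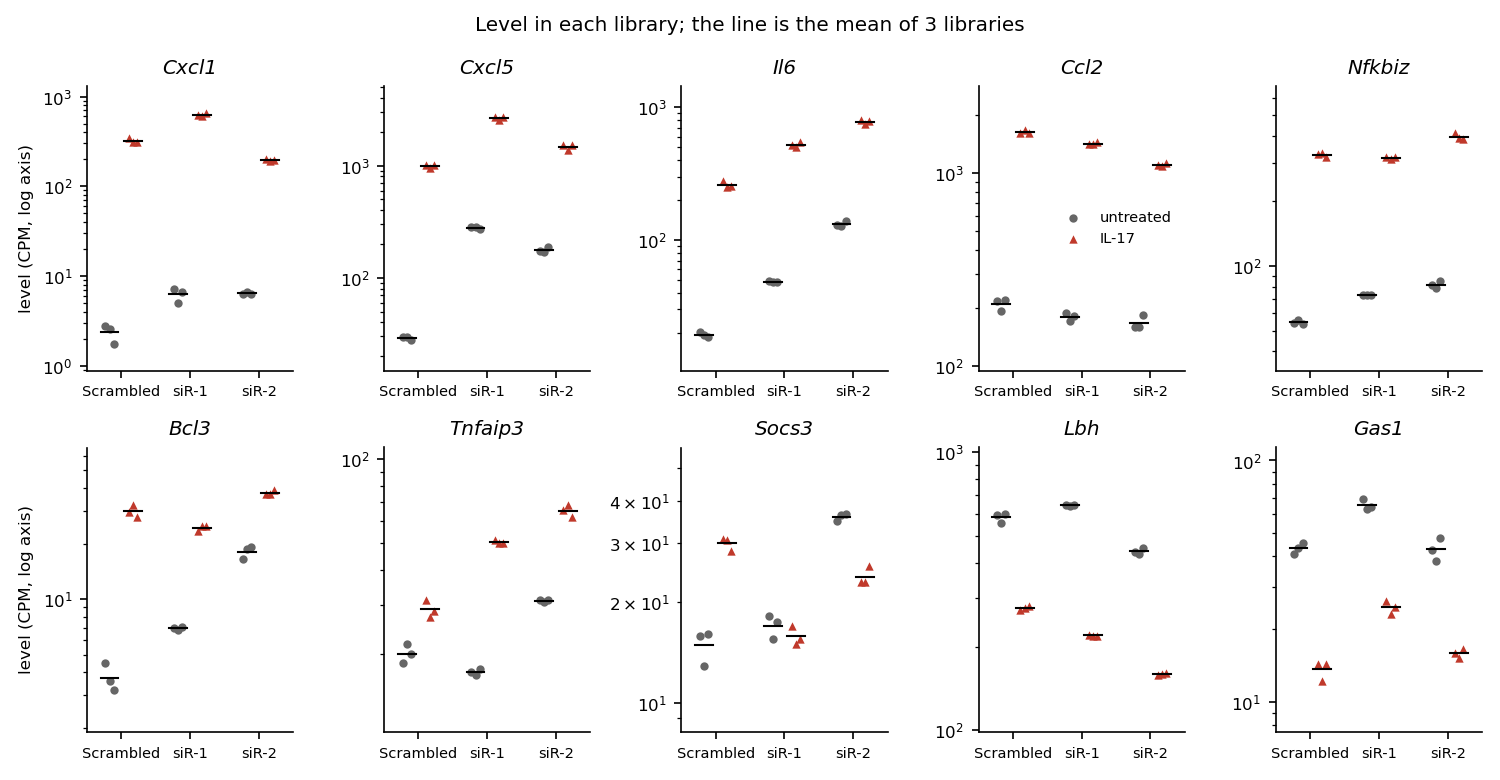
Level of 10 genes in each of 18 libraries (y axis, CPM, log axis) by siRNA, with grey circles for untreated and red triangles for IL-17 libraries and a line at the mean of 3 libraries. Under siR-1 the IL-17 libraries of Cxcl1, Cxcl5, Il6, Ccl2, Nfkbiz, Bcl3 and Tnfaip3 lie above and those of Lbh and Gas1 below all untreated ones, and the Socs3 groups overlap.

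Among 20 cytokines and colony-stimulating factors 19 were tested, 9 were called higher and 0 lower, and 13 rose and 2 fell at any size, with a median of 1.08. Il6, the cytokine that drives the acute-phase response (chr5:30013114-30019981), was at 49.4, 48.2 and 48.4 CPM in the untreated and 516, 499 and 542 CPM in the IL-17 libraries. That is a change of 3.41 ± 0.0439 on the log2 scale, adjusted p = 2.60e-26, a fold of 10.7, with the 3 IL-17 libraries close together. Lif, a cytokine of the same receptor family, rose from 91 ± 5.94 to 508 ± 20.6 CPM (2.48 ± 0.0574 on the log2 scale, adjusted p = 2.67e-16). Csf2, which encodes GM-CSF (chr11:54247271-54249667), was nearly silent without IL-17, with 0 to 9 estimated counts in a library, and reached 1307 to 1373 with it (ratio 341, 95% counting interval 94.1 to 2825). That ratio is of read pairs summed over the 3 libraries of a group, 2 without and 670 with IL-17, scaled by library size, and is given for each gene near the floor. Csf3, which encodes the neutrophil factor G-CSF, went from at most 4 to between 201 and 261 estimated counts (ratio 120, 95% counting interval 21.2 to 4789), from a single read pair without IL-17. The intervals cover counting error only. The alarmins of the IL-1 family, Il1a (ratio 26.5, 95% counting interval 11.9 to 73.3) and Il33 (from 1.63 ± 0.192 to 8.29 ± 0.177 CPM, 2.34 ± 0.159 on the log2 scale, adjusted p = 5.32e-10), were called higher as well. Tnf, the archetypal inflammatory cytokine, was called higher from 4 read pairs without to 41 with IL-17 over the 3 libraries of a group (ratio 10.4, 95% counting interval 3.78 to 40.2), and Tnfsf11, which encodes the osteoclast factor RANKL, rose from 0.126 ± 0.112 to 0.628 ± 0.06 CPM (2.30 ± 0.512 on the log2 scale, adjusted p = 0.00314). Tslp, an epithelial alarmin, rose from 2.8 ± 0.282 to 5.9 ± 0.682 CPM (1.08 ± 0.151 on the log2 scale, adjusted p = 5.08e-06), whereas Il15, a growth factor of lymphocytes, fell from 1.5 ± 0.203 to 0.757 ± 0.111 CPM (-0.98 ± 0.184 on the log2 scale, adjusted p = 2.62e-04). Csf1, the macrophage growth factor, rose from 3494 ± 52.5 to 4164 ± 50.9 CPM (0.25 ± 0.0275 on the log2 scale, adjusted p = 8.53e-08).

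The transcription factors downstream of the receptor rose in number: of 13 NF-κB, C/EBP and IκBζ genes 12 rose at any size, 5 of them by 1 or more, with a median of 0.72. Nfkbiz, which encodes the coactivator IκBζ (chr16:55811375-55838899), was at 72.8, 73.5 and 73 CPM in the untreated and 319, 312 and 320 CPM in the IL-17 libraries (2.12 ± 0.0315 on the log2 scale, adjusted p = 2.10e-25). Bcl3, an atypical IκB protein that binds p50 and p52 dimers (chr7:19808462-19822770), was at 6.99, 6.79 and 7.04 CPM in the untreated and 23.4, 24.9 and 25 CPM in the IL-17 libraries (1.81 ± 0.0844 on the log2 scale, adjusted p = 7.81e-15). Neither gene had overlapping groups. Nfkb1, the gene of p50, rose from 134 ± 2.03 to 358 ± 7.14 CPM (1.42 ± 0.0259 on the log2 scale, adjusted p = 1.68e-23), and Nfkb2 rose from 62.5 ± 3.38 to 103 ± 3.36 CPM (0.72 ± 0.0404 on the log2 scale, adjusted p = 2.84e-13). Rela, the gene of p65, rose by 0.18 on that scale (adjusted p = 0.00137). Cebpd rose from 80.4 ± 4.69 to 169 ± 1.92 CPM (1.07 ± 0.0432 on the log2 scale, adjusted p = 4.47e-16) and Cebpb from 87.1 ± 5.03 to 133 ± 3.61 CPM (0.61 ± 0.0475 on the log2 scale, adjusted p = 2.56e-10). Stat3, the factor that IL-6 activates, rose from 311 ± 10.4 to 361 ± 10.5 CPM (0.21 ± 0.0285 on the log2 scale, adjusted p = 2.18e-06). Pou2f2 was called higher on 12 to 13 estimated counts without and 144 to 179 with IL-17 (ratio 13.8, 95% counting interval 6.05 to 38.6), and Cebpa, at 2.26 ± 0.0289 CPM without and 1.72 ± 0.0939 CPM with IL-17, did not pass (adjusted p = 0.0691).

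Genes that restrain the pathway also rose, in part: of 20 feedback inhibitors and mRNA decay factors 11 rose and 4 fell at any size, 6 by 1 or more, with a median of 0.34. Zc3h12a, which encodes the RNase Regnase-1 that degrades cytokine mRNAs (chr4:125118423-125127840), was at 19.1, 17.4 and 16.6 CPM in the untreated and 212, 223 and 213 CPM in the IL-17 libraries (3.61 ± 0.0517 on the log2 scale, adjusted p = 1.35e-25). Nfkbia, which encodes IκBα, rose from 21.5 ± 0.173 to 66.5 ± 1.07 CPM (1.63 ± 0.0495 on the log2 scale, adjusted p = 1.10e-18). Tnfaip3, which encodes the ubiquitin-editing enzyme A20 (chr10:19000910-19015657), was at 17.2, 16.8 and 17.6 CPM in the untreated and 51.3, 49.9 and 50.1 CPM in the IL-17 libraries (1.55 ± 0.0569 on the log2 scale, adjusted p = 6.57e-17). All 3 genes had IL-17 libraries wholly above the untreated ones, which for Zc3h12a the choice of the largest rises required. Nfkbid, which encodes another nuclear IκB protein, rose from 0.964 ± 0.159 to 2.64 ± 0.653 CPM (1.45 ± 0.211 on the log2 scale, adjusted p = 8.87e-06). Tnip1, a partner of A20, rose from 40.6 ± 3.93 to 101 ± 4.12 CPM (1.32 ± 0.0509 on the log2 scale, adjusted p = 1.92e-16). The cytokine-signalling inhibitor Socs3, chosen after its values were seen, was at 18.1, 15.5 and 17.4 CPM in the untreated and 16.9, 15 and 15.5 CPM in the IL-17 libraries, groups that overlapped, and did not pass the test (-0.11 ± 0.0741 on the log2 scale, adjusted p = 0.435). Dusp1, a MAP kinase phosphatase, fell from 33.9 ± 1.22 to 22.8 ± 0.896 CPM (-0.58 ± 0.0522 on the log2 scale, adjusted p = 3.46e-09), and Zfp36, which encodes the mRNA decay factor TTP, fell from 28.3 ± 0.757 to 23.6 ± 0.0329 CPM (-0.26 ± 0.0538 on the log2 scale, adjusted p = 6.65e-04).

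The windows around the start sites of 4 of these genes are shown because kB elements are where NF-κB dimers bind and C/EBP elements where C/EBP factors bind, and because Bcl3 and Tnfaip3 are genes whose response differed from Scrambled in opposite directions (given with that comparison). The windows hold 250 bases before and 50 after the start site, on the gene's strand (RefSeq, GRCm38.p6): Cxcl1 chr5:90890995-90891294 plus strand, Il6 chr5:30012864-30013163 plus strand, Bcl3 chr7:19822706-19823005 minus strand and Tnfaip3 chr10:19015361-19015660 minus strand. Capitals mark matches, on either strand, to GGGA, any 4 bases and CC (called kB here) and to TTGC, any 2 bases and AA (called C/EBP here).

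Cxcl1: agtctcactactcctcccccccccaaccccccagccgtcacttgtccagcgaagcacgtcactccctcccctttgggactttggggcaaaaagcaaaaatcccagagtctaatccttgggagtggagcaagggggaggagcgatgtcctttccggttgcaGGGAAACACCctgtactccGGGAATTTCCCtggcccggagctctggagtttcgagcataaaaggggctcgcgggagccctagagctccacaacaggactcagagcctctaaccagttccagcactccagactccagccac
Il6: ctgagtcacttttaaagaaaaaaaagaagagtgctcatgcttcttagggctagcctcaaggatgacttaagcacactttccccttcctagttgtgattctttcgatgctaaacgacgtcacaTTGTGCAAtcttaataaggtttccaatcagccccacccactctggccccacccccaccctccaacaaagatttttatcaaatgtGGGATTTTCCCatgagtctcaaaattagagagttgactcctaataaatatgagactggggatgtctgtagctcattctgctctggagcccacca
Bcl3: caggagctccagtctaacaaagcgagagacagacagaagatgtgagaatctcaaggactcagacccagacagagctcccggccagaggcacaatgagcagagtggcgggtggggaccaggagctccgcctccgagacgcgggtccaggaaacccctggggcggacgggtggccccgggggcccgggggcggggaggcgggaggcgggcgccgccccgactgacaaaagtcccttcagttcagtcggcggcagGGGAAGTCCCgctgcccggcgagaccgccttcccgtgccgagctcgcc
Tnfaip3: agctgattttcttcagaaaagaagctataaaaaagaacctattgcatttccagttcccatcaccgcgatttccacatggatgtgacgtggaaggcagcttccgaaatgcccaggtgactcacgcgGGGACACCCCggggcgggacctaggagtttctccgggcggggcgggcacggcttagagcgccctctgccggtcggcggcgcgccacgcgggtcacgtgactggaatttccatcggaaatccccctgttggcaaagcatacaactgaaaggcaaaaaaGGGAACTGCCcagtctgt

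Cxcl1 holds 3 kB matches that begin 90, 71 and 70 bases before the start site, of which the last 2 overlap. Il6 has a pair of overlapping kB matches at 44 and 43 bases and a C/EBP match at 128 bases before it. Bcl3 has 1 kB match, 2 bases after the start site, and Tnfaip3 has 2, at 125 bases before and 32 bases after it. These distances are from the RefSeq start site. The GENCODE span given above for Tnfaip3 reaches almost to the upstream end of its window, so by that span its matches lie inside the gene. Such short letters occur often. Of 13400 tested genes with a window, 25.6% held a kB match and 8.81% a C/EBP match, and of all 27025 windows 20.5% and 10.8%. Among the genes called higher with a window, 63 of 175 (36%) held kB and 29 (16.6%) C/EBP, and among those called lower 32 of 79 (40.5%) held kB and 5 (6.33%) C/EBP. Of the 12 largest rises 11 had a window, 8 with kB and 5 with C/EBP, and of the 12 largest falls 8 had a window, 4 with kB and 0 with C/EBP. A match describes letters and not binding.

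Acute-phase, antimicrobial and iron-handling genes rose in part. Of 25, 20 were tested, 8 rose at any size and 5 were called higher, with a median of 0.36, while 12 lay at or under the floor in every siR-1 library. Nos2, the inducible nitric oxide synthase (chr11:78920787-78960254), went from 0 to 19 estimated counts to between 4726 and 5459 (ratio 440, 95% counting interval 202 to 1199), that is to 48.1, 42.8 and 48.9 CPM. Lcn2, which encodes the siderophore-binding lipocalin 2 (chr2:32384633-32388252), was at 1.95, 0.977 and 1.27 CPM in the untreated and 35.1, 34.9 and 37.9 CPM in the IL-17 libraries (4.68 ± 0.326 on the log2 scale, adjusted p = 1.75e-07). Neither gene had overlapping groups, as the choice of the largest rises required. Steap4, a metalloreductase (chr5:7960457-7982213), was at 3.81, 3.41 and 3.81 CPM in the untreated and 38.5, 40.5 and 39.7 CPM in the IL-17 libraries (3.43 ± 0.172 on the log2 scale, adjusted p = 6.84e-10). The zinc and iron transporter Slc39a14 rose from 85 ± 5.39 to 194 ± 5.23 CPM (1.19 ± 0.038 on the log2 scale, adjusted p = 3.12e-18), and Saa3, an acute-phase serum amyloid, rose from a few read pairs (ratio 20.8, 95% counting interval 10.3 to 48.9). S100a8, a subunit of calprotectin, stayed near the floor, with 0 to 22 estimated counts without and 25 to 42 with IL-17 (ratio 2.89, 95% counting interval 1.09 to 8.94), and did not pass the test (1.47 ± 0.856 on the log2 scale, adjusted p = 0.321). Serpinb2, a serine protease inhibitor (chr1:107511423-107535478), was at 3.9, 3.39 and 3.85 CPM in the untreated and 62.8, 57 and 62.9 CPM in the IL-17 libraries (4.04 ± 0.108 on the log2 scale, adjusted p = 2.03e-14). Sprr2e, a small proline-rich protein of epithelial barriers, went from at most 12 to between 537 and 622 estimated counts (ratio 98.2, 95% counting interval 33.3 to 479), but it belongs to a family of near-identical genes among which reads could have been split.

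Prostaglandin genes moved upward in part: of 18 tested, 8 rose and 1 fell at any size, with a median of 0.23. Of all genes tested 7.15% rose and 8.91% fell at any size. Ptgs2, which encodes cyclooxygenase 2, rose from 338 ± 5.19 to 871 ± 49.1 CPM (1.37 ± 0.0633 on the log2 scale, adjusted p = 1.43e-10), and Ptges, the synthase of prostaglandin E2 that follows it, rose from 1.82 ± 0.294 to 9.33 ± 1.04 CPM (2.36 ± 0.144 on the log2 scale, adjusted p = 1.67e-12). The receptor gene Ptger4 fell from 36.4 ± 3.01 to 29.3 ± 0.556 CPM (-0.31 ± 0.06 on the log2 scale, adjusted p = 3.63e-04). Of 24 matrix proteases and inhibitors 6 rose and 5 fell, with a median of 0.01. Mmp3, which encodes stromelysin 1, was at 1378, 1314 and 1419 CPM in the untreated and 1491, 1427 and 1556 CPM in the IL-17 libraries. Its groups lay just apart, and it did not pass the test (0.12 ± 0.0646 on the log2 scale, adjusted p = 0.27). It passed in a fit of the 6 siR-1 libraries alone (log2 0.13, adjusted p = 0.0208) and with the replicate number as a block (log2 0.12, adjusted p = 0.00486). Mmp9, a gelatinase, was called higher from 0.16 ± 0.103 to 1.07 ± 0.308 CPM (2.74 ± 0.553 on the log2 scale, adjusted p = 6.18e-04), Mmp13, a collagenase, rose from 6.14 ± 1.15 to 11.6 ± 0.447 CPM (0.92 ± 0.129 on the log2 scale, adjusted p = 5.62e-06), and Timp1, an inhibitor of these proteases, rose from 574 ± 26.9 to 861 ± 24.6 CPM (0.58 ± 0.0399 on the log2 scale, adjusted p = 2.18e-11). Among the aggrecanases, Adamts9 rose from 71.4 ± 5.91 to 167 ± 8.08 CPM (1.23 ± 0.0606 on the log2 scale, adjusted p = 1.04e-11) and Adamts5 fell from 302 ± 2.69 to 138 ± 4.29 CPM (-1.13 ± 0.0471 on the log2 scale, adjusted p = 3.75e-14).

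The receptor and its adaptors moved less. Of 22 tested genes of the IL-17 receptor and its proximal signalling, 6 rose and 3 fell, 1 was called higher, and the median was -0.01. Il17ra was at 82.4, 86 and 84.2 CPM in the untreated and 87.1, 86.5 and 80.4 CPM in the IL-17 libraries (95% interval -0.07 to 0.09 on the log2 scale, adjusted p = 0.958), and Il17rc went from 19.5 ± 1.8 to 19.2 ± 0.727 CPM (95% interval -0.17 to 0.11, adjusted p = 0.901). Traf3ip2, the gene of ACT1, rose from 20.8 ± 0.984 to 32.2 ± 1.06 CPM (0.63 ± 0.0653 on the log2 scale, adjusted p = 3.73e-08), Traf6 was at 26.7 ± 1.3 and 28.8 ± 2.11 CPM (adjusted p = 0.235), and Ikbke, a kinase of the IKK family, rose from 19.1 ± 0.804 to 41.1 ± 1.86 CPM (1.10 ± 0.0482 on the log2 scale, adjusted p = 2.00e-15). Il17rd, a receptor that also dampens FGF signalling, fell from 11.9 ± 1.07 to 9.82 ± 0.665 CPM (-0.28 ± 0.0852 on the log2 scale, adjusted p = 0.0219). The ligands Il17a and Il17f were not tested, since their counts were too low.

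**Figure D3:**
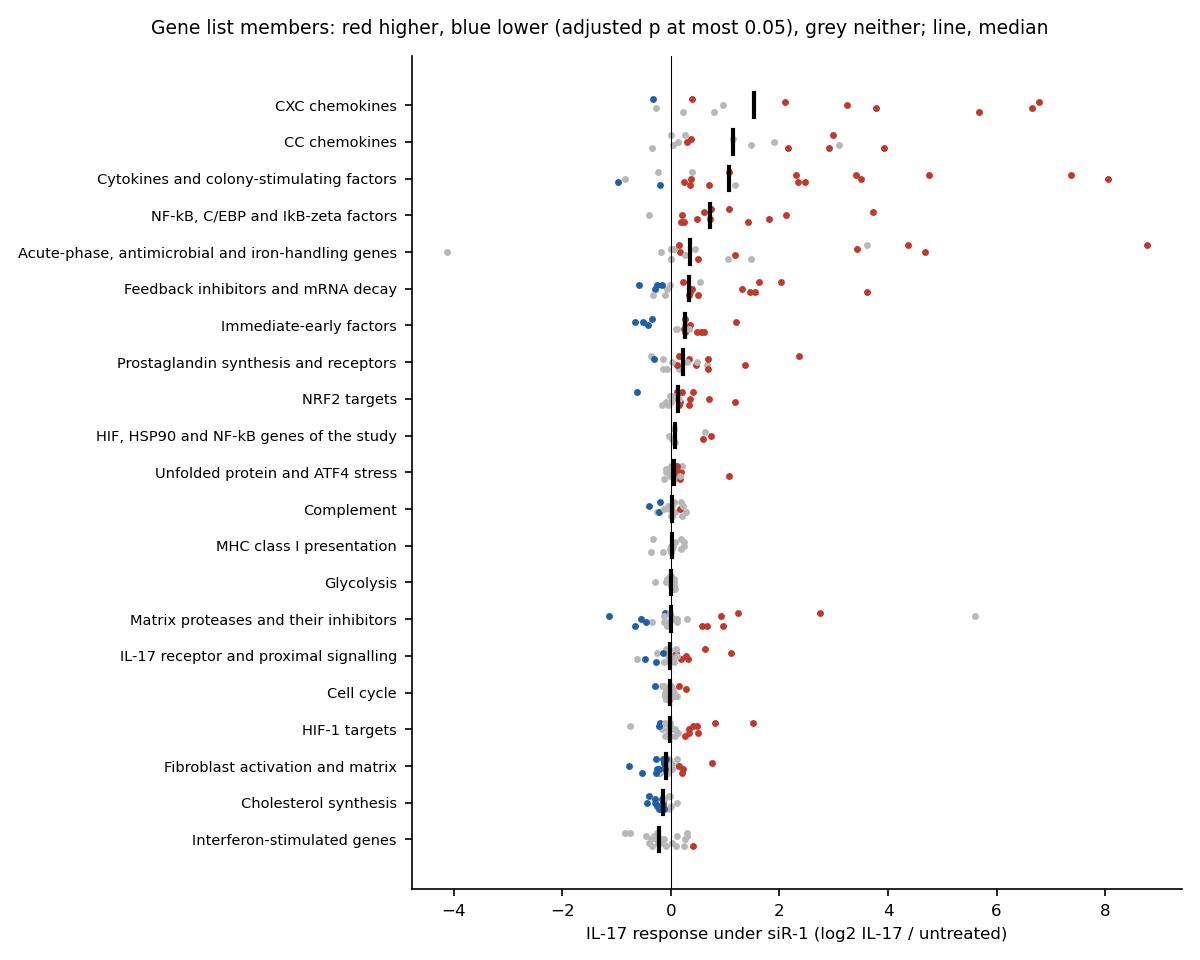
Response to IL-17 under siR-1 of each tested member of the 21 gene lists (x axis, log2 of IL-17 over untreated), with 1 point per gene, red where it rose and blue where it fell with an adjusted p not above 0.05 and grey otherwise, and a black line at the list's median. Chemokine, cytokine and NF-κB lists have medians between 0.72 and 1.53, and the other lists lie between -0.21 and 0.36.

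The 12 largest falls of genes with at least 5 CPM belonged to genes of several kinds. Lbh, a transcriptional cofactor of heart and limb development (chr17:72918305-72941947), was at 647, 640 and 647 CPM in the untreated and 220, 219 and 219 CPM in the IL-17 libraries (-1.56 ± 0.0285 on the log2 scale, adjusted p = 1.70e-23). Gas1, a membrane protein of growth-arrested cells that also binds Hedgehog ligands (chr13:60174405-60177365), was at 69.2, 62.9 and 63.9 CPM in the untreated and 26.2, 23 and 24.6 CPM in the IL-17 libraries (-1.41 ± 0.0736 on the log2 scale, adjusted p = 2.64e-13). Osr1, a transcription factor of embryonic mesenchyme, fell from 19 ± 1.12 to 7.56 ± 0.679 CPM (-1.33 ± 0.0938 on the log2 scale, adjusted p = 3.07e-11). The groups of these 3 genes were wholly apart, as the choice of the 12 required. Gadd45g, a stress-response gene, fell from 46.7 ± 0.993 to 16.6 ± 0.996 CPM (-1.49 ± 0.0701 on the log2 scale, adjusted p = 9.10e-15), and the protocadherin Pcdh18 fell from 46 ± 1.21 to 16 ± 1.85 CPM (-1.52 ± 0.0599 on the log2 scale, adjusted p = 2.67e-16). Maf, a leucine zipper transcription factor, fell from 10.6 ± 0.785 to 4.37 ± 0.275 CPM and G0s2, an inhibitor of lipolysis, from 10.9 ± 0.898 to 4.52 ± 0.542 CPM, both with a log2 change of -1.27. The 12 also held Adcy8, an adenylyl cyclase that fell from 6.88 ± 0.489 to 2.75 ± 0.452 CPM (log2 -1.32, adjusted p = 1.84e-06), and Akap5, an anchor of protein kinase A that fell from 10.7 ± 0.92 to 4.47 ± 0.169 CPM (log2 -1.26, adjusted p = 2.57e-08). The other 3 were Fam13c (log2 -1.39, adjusted p = 1.88e-14), Dipk2a (log2 -1.31, adjusted p = 4.36e-14) and Mgat3 (log2 -1.32, adjusted p = 1.06e-07), a glycosyltransferase. Of 12 markers of CFs, 9 fell and 1 rose at any size, against 8.91% and 7.15% of all genes tested. The summed level of these markers was 17056 to 17352 CPM without and 15399 to 15823 CPM with IL-17. Among them Tcf21 was at 193, 198 and 189 CPM in the untreated and 146, 146 and 141 CPM in the IL-17 libraries (-0.42 ± 0.0464 on the log2 scale, adjusted p = 2.08e-07) and Dcn rose by 0.38 on the log2 scale. The part of that shift in the falls was not tested.

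Matrix and contractile genes showed small falls. Of 32 genes of fibroblast activation and matrix 13 fell and 4 rose at any size, none by 1 or more, with a median of -0.09. Acta2, which encodes smooth muscle actin, was at 1276, 1253 and 1179 CPM in the untreated and 1086, 1030 and 1098 CPM in the IL-17 libraries, without overlap (-0.21 ± 0.0314 on the log2 scale, adjusted p = 1.71e-05). Col1a1 (from 5243 ± 44.4 to 4797 ± 143 CPM, -0.13 ± 0.0268 on the log2 scale, adjusted p = 9.07e-04) and Postn (from 1589 ± 21.7 to 1479 ± 48.9 CPM, -0.10 ± 0.0315 on the log2 scale, adjusted p = 0.0235) fell by little, a call that Postn lost without any of 3 libraries in turn (untreated replicates 2 and 3 and IL-17 replicate 1, adjusted p = 0.0721 to 0.155), and Col3a1 did not pass (-0.08 ± 0.0336 on the log2 scale, adjusted p = 0.141). Tnc, a matricellular protein of injured tissue, rose (from 1665 ± 42.8 to 2808 ± 58.2 CPM, 0.75 ± 0.0379 on the log2 scale, adjusted p = 3.75e-14). Cholesterol synthesis genes showed many small falls, 12 of 18 at any size with a median of -0.15, for instance Insig1, which holds back sterol-regulated transcription (from 68.5 ± 1.28 to 55.5 ± 2.97 CPM, -0.30 ± 0.0525 on the log2 scale, adjusted p = 1.09e-04), and none rose (0 of 18 also at an unadjusted p under 0.05 by edgeR and 0 by DESeq2). Of 25 HIF-1 targets 8 rose and 2 fell with a median of -0.02. Hif1a itself was at 255, 252 and 255 CPM in the untreated and 434, 423 and 419 CPM in the IL-17 libraries (0.74 ± 0.0259 on the log2 scale, adjusted p = 2.01e-17), Vegfa rose from 188 ± 8.18 to 330 ± 5.76 CPM (0.81 ± 0.0417 on the log2 scale, adjusted p = 9.95e-14) and Egln3, a prolyl hydroxylase, rose from 9.71 ± 0.53 to 27.6 ± 1.86 CPM (1.51 ± 0.0713 on the log2 scale, adjusted p = 1.07e-14). The chaperone genes Hsp90aa1 (0.06 ± 0.0281 on the log2 scale, adjusted p = 0.166) and Hsp90ab1 (0.05 ± 0.0256 on the log2 scale, adjusted p = 0.296) did not pass, and neither did any of 14 glycolysis genes (0 of 14 at any size by edgeR and by DESeq2, 1 at an unadjusted p under 0.05, median 0.01). NRF2 targets had 11 of 20 genes higher and 1 lower (median 0.13), with Slc7a11, the cystine transporter, from 40 ± 2.73 to 91.2 ± 0.419 CPM (1.19 ± 0.081 on the log2 scale, adjusted p = 1.87e-09). Stress genes of the unfolded protein and ATF4 programmes had 6 of 18 higher (median 0.06), immediate-early factors 8 of 17 higher and 4 lower (median 0.26), cell cycle genes 2 of 30 higher and 1 lower (median -0.02) and complement genes 1 of 20 higher and 3 lower (median 0.03). Beside these list counts at any size, 7.15% of all genes tested were higher and 8.91% lower. Of 24 interferon-stimulated genes 1, Irf1 (log2 0.40, adjusted p = 0.00589), rose and 0 fell by edgeR and by DESeq2, 1 of them at an unadjusted p under 0.05, with a median of -0.21. Their summed level was 645 to 1115 CPM without and 669 to 804 CPM with IL-17, so the range of the untreated libraries held that of the IL-17 libraries. Of 13 genes of MHC class I presentation 0 passed by either tool and 2 had an unadjusted p under 0.05 (median 0.02).

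Whether siR-1 cells had another response was asked by subtracting the response under Scrambled from that under siR-1. In this difference the depletion of IAMP and other effects of this siRNA cannot be told apart. The difference reached 1 on the log2 scale at an adjusted p of at most 0.05 in 19 genes with a higher response under siR-1 (0.0895% of those tested) and in 21 with a lower one (0.099%). Without untreated siR-1 replicate 1 the lower count was 12. At any size it was above 0 in 190 genes (0.895%) and below 0 in 263 (1.24%). Of the responses themselves, under Scrambled 231 genes were called higher (1.09%) and 65 lower (0.306%), and under siR-2 259 (1.22%) and 102 (0.481%). Of the 260 higher genes of siR-1, 137 were also called under Scrambled, 52.7% of the siR-1 and 59.3% of the Scrambled list, 2 were called lower there, and 250 had the same sign. Of the 119 lower genes 33 were shared, 27.7% of the siR-1 and 50.8% of the Scrambled list, and 108 had the same sign. With siR-2 the siR-1 response shared 168 higher genes (64.6% of the siR-1 and 64.9% of the siR-2 list) and 36 lower ones (30.3% and 35.3%). The 3 siRNA groups shared 113 genes called higher and 19 called lower. To compare the size of the responses over genes picked in neither of the 2 arms, the genes called in siR-2 cells with at least 5 CPM were followed. As siR-2 also targets IAMP, this choice may favour siR-1 over Scrambled. Over 118 such higher genes the median response was 1.46 under siR-1, 1.3 under Scrambled and 1.42 under siR-2, and 73 had the larger fold and 81 the larger step in CPM under siR-1 than under Scrambled. Over 22 lower genes the medians were -1.21, -0.956 and -1.19. These medians carry no test. By the test of single genes at any size, the difference from Scrambled was above 0 in 36 and below 0 in 14 of the 118. Among the 22 it was above 0 in 1 and below 0 in 7.

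**Figure D4:**
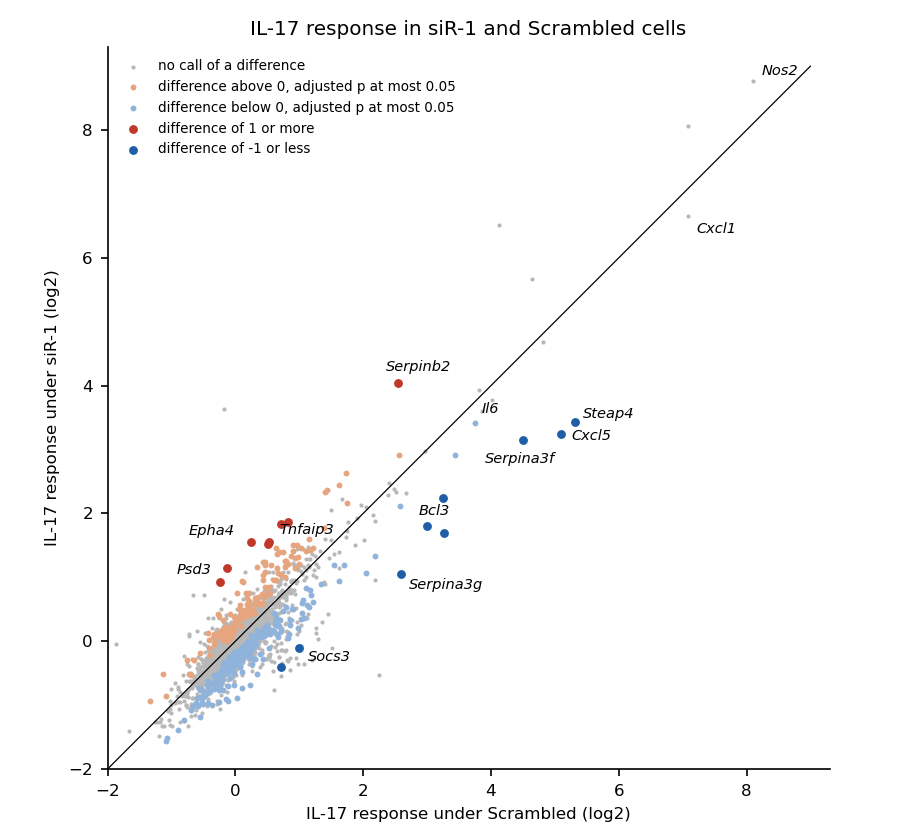
Response to IL-17 under siR-1 (y axis, log2) against that under Scrambled (x axis, log2), for genes with at least 5 CPM in 1 of the siR-1 groups, with 1 point per gene and the line of equal response. Dark red and dark blue points are genes whose difference reached 1 upward or downward with an adjusted p not above 0.05, and pale points those with a smaller difference at that p. Cxcl5, Steap4, Bcl3 and the Serpina3 genes lie below the line, and Serpinb2, Epha4, Tnfaip3 and Psd3 above it.

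The 6 genes named for a lower response under siR-1 rose in both siR-1 and Scrambled cells and had a higher mean before IL-17 in siR-1 cells, for Serpina3f within the spread of the libraries. The untreated siR-1 level is subtracted in the difference that chose these genes, so the choice itself favours a high one. Cxcl5 was at 29.8, 29.6 and 27.9 CPM without and 1022, 954 and 1006 CPM with IL-17 under Scrambled, so its response was smaller under siR-1, with a difference of -1.86 ± 0.0571 (log2, adjusted p = 6.23e-17), while its step was 2367 CPM under siR-1 and 965 CPM under Scrambled. The siR-1 libraries stood above the Scrambled ones both without and with IL-17. Steap4 went from 0.76 ± 0.362 to 30.3 ± 1.25 CPM under Scrambled, a difference of -1.89 ± 0.254 on the log2 scale, adjusted p = 5.98e-04, with steps of 35.9 and 29.6 CPM. Bcl3 was at 4.47, 3.57 and 3.21 CPM without and 29.5, 32.4 and 27.9 CPM with IL-17 under Scrambled, a difference of -1.18 ± 0.119 on the log2 scale, adjusted p = 4.45e-07. Here the siR-1 cells began higher and ended lower, with steps of 17.5 and 26.2 CPM. The serine protease inhibitor Serpina3f went from 10.8 ± 1.66 to 95.9 ± 7.52 CPM under siR-1 and from 9.41 ± 0.489 to 214 ± 16.9 CPM under Scrambled (difference -1.35 ± 0.156 on the log2 scale, adjusted p = 2.17e-04). Its neighbours on chromosome 12, Serpina3g (from 46.1 ± 4.76 to 95.4 ± 2.24 CPM and from 14.7 ± 1.99 to 88.7 ± 6.99 CPM, difference -1.54 ± 0.127 on the log2 scale, adjusted p = 3.44e-06) and Serpina3i (from 2.53 ± 0.221 to 8.15 ± 0.799 CPM and from 1.39 ± 0.204 to 13.3 ± 0.637 CPM, difference -1.57 ± 0.148 on the log2 scale, adjusted p = 1.60e-07), were also smaller in fold. These genes are near-identical, so reads could have been split among them, and their values are uncertain. Il6 (from 19.4 ± 0.758 to 261 ± 15.7 CPM under Scrambled, difference -0.34 ± 0.0586 on the log2 scale, adjusted p = 0.00103) and Ccl7 (from 23.6 ± 2.04 to 255 ± 5.08 CPM, difference -0.51 ± 0.0647 on the log2 scale, adjusted p = 2.95e-05) had slightly smaller folds and larger steps under siR-1, of 470 against 241 CPM and 766 against 231 CPM. For Cxcl1 (from 2.36 ± 0.524 to 320 ± 19 CPM under Scrambled) the difference of -0.44 ± 0.174 did not pass (adjusted p = 0.319, 95% interval -0.82 to -0.06), and for Ccl2 it was 0.01 ± 0.0728 (adjusted p = 0.994, 95% interval -0.14 to 0.17).

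Several of the transcription factors had a smaller response. Of the 13 NF-κB, C/EBP and IκBζ genes 6 had a smaller response under siR-1 at any size and none a larger one (0 by edgeR and by DESeq2, 1 at an unadjusted p under 0.05), against 1.24% and 0.895% of all genes tested. Besides Bcl3 they were Cebpd (difference -0.98 ± 0.0609 on the log2 scale, adjusted p = 1.25e-10), Cebpb (-0.61 ± 0.0677 on the log2 scale, adjusted p = 2.92e-06), Nfkbiz (-0.47 ± 0.0432 on the log2 scale, adjusted p = 1.26e-07), Stat3 (-0.24 ± 0.0403 on the log2 scale, adjusted p = 5.56e-04) and Arid5a, an mRNA-stabilizing protein (-0.60 ± 0.0972 on the log2 scale, adjusted p = 4.82e-04). Cebpb and Cebpd also began higher in siR-1 cells, at 87.1 ± 5.03 against 38.1 ± 2.34 CPM and 80.4 ± 4.69 against 45.1 ± 1.82 CPM. Nfkb1 (0.09 ± 0.036, adjusted p = 0.305) and Rela (-0.13 ± 0.055, adjusted p = 0.299) did not pass the test of a difference. Some other lists had more larger than smaller responses at any size, with 3 and 0 of 32 genes of fibroblast activation and matrix, 2 and 0 of 18 prostaglandin genes, 2 and 0 of 20 NRF2 targets, 3 and 2 of 25 HIF-1 targets and 3 and 2 of 20 feedback inhibitors. For the first 3 of these lists the counts were 3 and 3, 4 and 1, and 6 and 0 at an unadjusted p under 0.05, and 3 and 1, 2 and 0, and 2 and 0 by DESeq2. For the HIF-1 targets they were 8 and 3 at that p, and 3 and 2 by DESeq2. The feedback inhibitors turned the other way, with 3 larger and 8 smaller at that p, and 3 and 5 by DESeq2. The 15 CC chemokines had 0 larger and 3 smaller responses by edgeR, by DESeq2 and at that p. For the 12 CXC chemokines the counts were 0 and 1 by either tool, and 1 and 2 at that p. For the 22 genes of the IL-17 receptor list they were 0 and 1 by edgeR, 0 and 2 by DESeq2, and 1 and 3 at that p. Of 17 immediate-early factors 6 had a smaller response by edgeR, among them Ier3 (-0.50 ± 0.0727 on the log2 scale, adjusted p = 1.58e-04) and Junb (-0.27 ± 0.0627 on the log2 scale, adjusted p = 0.0152). By DESeq2 and at an unadjusted p under 0.05 there were 7, and 0 had a larger response by any of these. Socs3 was at 15.8, 12.9 and 16 CPM without and 30.7, 30.6 and 28.3 CPM with IL-17 under Scrambled and rose there (log2 1.00, adjusted p = 1.05e-10), while it did not pass under siR-1 (difference -1.11 ± 0.104 on the log2 scale, adjusted p = 1.72e-07). Under siR-2 it went from 35.9 ± 0.838 to 23.8 ± 1.48 CPM, a change of -0.59 ± 0.0728 on the log2 scale, adjusted p = 7.44e-07, a fall. Interferon-stimulated genes had a median response of 0.65 under Scrambled, 0.14 under siR-2 and -0.21 under siR-1, but 0 of 24 differences from Scrambled passed the test by edgeR. At an unadjusted p under 0.05 there were 13, all with a lower response under siR-1, and DESeq2 passed 3.

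**Figure D5:**
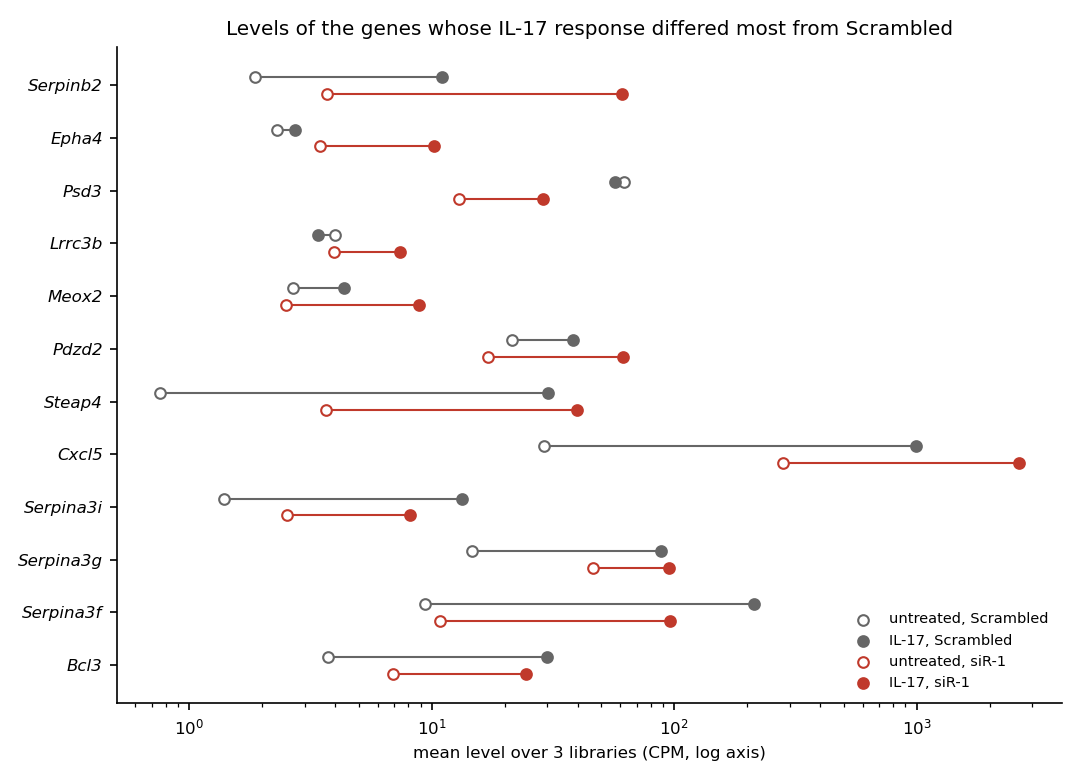
Mean level over 3 libraries (x axis, CPM, log axis) of the 12 genes whose response under siR-1 differed most from that under Scrambled by the naming rule, with open circles for untreated and filled circles for IL-17 cells, grey for Scrambled and red for siR-1. For the lower 6 genes the open red circle lies to the right of the open grey one, that is the mean of untreated siR-1 cells was higher, by little for Serpina3f. The choice of these genes by their difference favours such a position.

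Of the 6 genes named for a larger response under siR-1, Epha4, Psd3 and Lrrc3b did not pass the test under Scrambled, and Serpinb2, Meox2 and Pdzd2 rose there by less. Serpinb2 went from 1.87 ± 0.465 to 11 ± 0.956 CPM under Scrambled, so that the response under siR-1 was larger by 1.48 ± 0.157 on the log2 scale, adjusted p = 2.64e-05. Tnfaip3, outside the 6 and chosen after its values were seen, was at 18.5, 21.7 and 19.9 CPM without and 31.1, 27 and 28.6 CPM with IL-17 under Scrambled, a difference of 1.03 ± 0.0793 on the log2 scale, adjusted p = 6.69e-09. Its untreated libraries were slightly lower under siR-1. Epha4, an ephrin receptor, was at 3.62, 3.58 and 3.22 CPM in the untreated and 10.2, 9.53 and 11 CPM in the IL-17 libraries under siR-1 and went from 2.31 ± 0.284 to 2.74 ± 0.391 CPM under Scrambled (difference 1.31 ± 0.155 on the log2 scale, adjusted p = 6.29e-06). Psd3, an exchange factor of ARF6, rose from 13 ± 1.34 to 28.9 ± 1.41 CPM under siR-1 and went from 62.4 ± 2.97 to 56.8 ± 1.35 CPM under Scrambled (difference 1.28 ± 0.0791 on the log2 scale, adjusted p = 1.25e-10), so it stayed lower in siR-1 cells in both conditions. Meox2, a homeobox factor of mesoderm (1.12 ± 0.179 on the log2 scale, adjusted p = 3.74e-04), Pdzd2 (1.04 ± 0.112 on the log2 scale, adjusted p = 4.13e-06) and Lrrc3b (1.15 ± 0.177 on the log2 scale, adjusted p = 2.18e-04) complete the 6, and Lrrc3b did not pass with all 27 CF libraries in the fit (log2 1.16, adjusted p = 0.0846). Other members of the lists that also had a larger response were Ptges (0.93 ± 0.197 on the log2 scale, adjusted p = 0.00764), Il33 (0.94 ± 0.216 on the log2 scale, adjusted p = 0.0212), Mmp13 (0.79 ± 0.19 on the log2 scale, adjusted p = 0.021), Slc39a14 (0.63 ± 0.0534 on the log2 scale, adjusted p = 2.96e-08) and Il1a (1.98 ± 0.454 on the log2 scale, adjusted p = 0.0149). For Il1a the untreated libraries held a few read pairs only.

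Differences from siR-2 were fewer, 7 higher (0.033%) and 10 lower (0.0471%), and 12 higher without IL-17 siR-2 replicate 2. Both comparisons share the siR-1 libraries. Larger responses than under siR-2 as well were found for Serpinb2 (1.10 ± 0.137 on the log2 scale, adjusted p = 3.26e-04) and Psd3 (1.33 ± 0.079 on the log2 scale, adjusted p = 1.43e-10) of the 12 genes above, while Bcl3 had a larger response than under siR-2 (0.75 ± 0.115 on the log2 scale, adjusted p = 4.44e-04) and a smaller one than under Scrambled. Under siR-2 Psd3 had a log2 change of -0.18 (from 83.1 ± 3.75 to 73.1 ± 1.51 CPM). Cxcl5 (from 178 ± 9.3 to 1474 ± 71.8 CPM under siR-2, difference 0.19 ± 0.0555 on the log2 scale, adjusted p = 0.133), Steap4 (-0.17 ± 0.24 on the log2 scale, adjusted p = 0.942) and the 3 Serpina3 genes did not pass, with an interval of -0.69 to 0.34 for Steap4. Cxcl1 rose more under siR-1 than under siR-2 (from 6.4 ± 0.156 to 198 ± 5.37 CPM, difference 1.69 ± 0.157 on the log2 scale, adjusted p = 8.38e-05), as did Il6 (from 132 ± 5.67 to 777 ± 24.4 CPM, 0.86 ± 0.0568 on the log2 scale, adjusted p = 8.57e-10), which began higher under siR-2, and Rnf122, a ubiquitin ligase (1.20 ± 0.195 on the log2 scale, adjusted p = 9.02e-04). The responses of Pag1, an adaptor of Csk (-1.32 ± 0.125 on the log2 scale, adjusted p = 4.15e-07), A4galt, a glycosyltransferase (-1.09 ± 0.12 on the log2 scale, adjusted p = 4.73e-06), and Adamts4, an aggrecanase (-1.08 ± 0.134 on the log2 scale, adjusted p = 3.02e-05), were lower than under siR-2.

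A further table held CF libraries labelled as given TGF-β, in which genes of the IL-17 response were above the untreated level too. With all 27 CF libraries scaled together, the mean of Cxcl1 was 6.3 CPM in untreated, 634 in IL-17 and 408 in TGF-β siR-1 libraries. For Cxcl5 these means were 282, 2672 and 2558 CPM, for Nos2 0.107, 47.1 and 64.2 CPM, and for Lcn2 1.41, 36.3 and 890 CPM. Of the 12 largest rises 11 were above the untreated level in the libraries labelled TGF-β, and 8 were higher with IL-17 than there. Without depletion, Cxcl1 was at 209 and Lcn2 at 531 CPM in the Scrambled libraries of that label. In the siR-1 libraries of that label Il6 was at 143 CPM and Nfkbiz at 116 CPM, against 524 and 320 CPM with IL-17. Of the 12 largest falls 9 were below the untreated level in the libraries labelled TGF-β, and 9 were lower with IL-17 than there, as for Lbh at 648, 221 and 485 CPM. Whether the TGF-β label tells all that these cells were given was not tested. These levels carry no test, the comparisons share the untreated libraries, and the part of the table in them was not tested.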

How the data were processed

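RNA of CFs was sequenced in libraries of 3 per group. Per the labels and the methods, the authors trimmed reads with cutadapt, aligned them to GRCm38 with HISAT2 and assembled and quantified transcripts with StringTie, and DESeq2 is named among their tools; versions are not given here. The deposited tables hold estimated counts per gene as whole numbers, 1 table per stimulus, and were joined by gene identifier (55487 genes). In genes longer than 1000 bases in an exon and seen in 1 library, the most frequent value was 6, taken as 1 read pair. Counts were fitted as deposited for 18 libraries in 6 groups with edgeR 4.0.16 in R 4.3.3 (filterByExpr, TMM, robust quasi-likelihood), with DESeq2 1.42.0 as an alternative, and p values were adjusted by Benjamini-Hochberg over 21219 genes. Calls required an adjusted p of at most 0.05 and a log2 change of at least 1. A response is IL-17 over untreated, and a difference subtracts another siRNA's response. Named genes were the 12 largest rises and falls, and the 6 and 3 largest differences in each direction from Scrambled and siR-2, among called genes with at least 5 CPM whose libraries did not overlap, genes the study measured, and from each list its most changed and highest members. Further list members were named after their values were seen. The members and the lists were chosen with earlier results of these data known. Libraries of a group differed beyond sampling noise (chi-square per degree of freedom 2.02 to 3.12) and were counted separately. Positions are from GENCODE for GRCm38 and windows from RefSeq. Alternatives were another scaling, filters, fits and the omission of each library. Scripts were tested on simulated data.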

Additional observations from a re-analysis of the deposited data

Results flagged for a closer look

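For 17 named genes the response under siR-1 differed from that in other cells by the test of the difference itself (edgeR, adjusted over all genes). At any size of difference, Psd3, Serpinb2, Bcl3, Adamts4 and Rnf122 passed against both other siRNAs. A response above that of Scrambled cells was found for Serpinb2 (1.48), Epha4 (1.31), Psd3 (1.28), Lrrc3b (1.15), Meox2 (1.12) and Pdzd2 (1.04), each on the log2 scale. A response below it was found for Steap4 (-1.89), Cxcl5 (-1.86), Serpina3i (-1.57), Serpina3g (-1.54), Serpina3f (-1.35) and Bcl3 (-1.18). Against siR-2 cells the difference was 1.69 for Cxcl1, 1.33 for Psd3 and 1.20 for Rnf122, and -1.32 for Pag1, -1.09 for A4galt and -1.08 for Adamts4. The response of Psd3 was 1.15 under siR-1, -0.13 under Scrambled and -0.18 under siR-2. Its level in untreated siR-1 cells was 13 ± 1.34 CPM, against 62.4 ± 2.97 CPM under Scrambled and 83.1 ± 3.75 CPM under siR-2. These genes were taken from the largest differences, so their sizes are a selection. Groups of 3 libraries allow no test for a single outlying library.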

How the results depend on the processing

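Counts of genes called moved by more than 1.5 times mainly with the size of change required. At a 1.5-fold change in place of a log2 change of 1, 440 genes were higher and 362 lower with IL-17 under siR-1, 45 had a higher and 50 a lower response than under Scrambled, and 19 and 29 than under siR-2. Leaving out each library in turn gave 250 to 271 higher and 106 to 132 lower genes, 13 to 21 with a higher and 12 to 23 with a lower response than under Scrambled, 6 to 12 and 7 to 14 than under siR-2, and 107 to 112 list members that rose and 43 to 48 that fell, against 120 and 52 with all libraries. Dividing the estimated counts by 6, which brings them to the scale of read pairs, left 6 genes with a lower response than under siR-2. Of 142 recomputed counts 133 stayed within 1.5 times, and of 1143 recomputed responses of named genes and list members 1138 kept their direction and call, among DESeq2, other scaling, other filters, the fit with 27 libraries and the omission of single libraries. The exceptions were Mmp3 and Postn, given with their values above, and of 260 differences from Scrambled the exception was Lrrc3b. Whether the replicate numbers pair the libraries cannot be told from these values. Over 10833 genes, deviations of same-numbered untreated and IL-17 siR-1 libraries correlated by 0.05, 0.11 and 0.14. Those of libraries with different numbers correlated by -0.24 to 0.13, and untreated library 1 correlated better with IL-17 library 2 (0.13) than with IL-17 library 1. With the replicate number as a block, 256 genes were higher and 115 lower, of which 251 and 107 were shared, and 18, 21, 6 and 10 genes differed from Scrambled and siR-2. Depth limits genes below about 3 read pairs in a library.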

Other observations

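Some genes outside the lists were looked at after their values were seen. Genes of adhesion of leukocytes to endothelium were higher with IL-17 under siR-1, with Icam1 from 66.8 ± 1.26 to 191 ± 6.86 CPM (1.51 ± 0.0653 on the log2 scale, adjusted p = 7.95e-12), Vcam1 from 610 ± 32.9 to 1242 ± 48.8 CPM (1.03 ± 0.0385 on the log2 scale, adjusted p = 1.09e-16) and Selp, which encodes P-selectin, from 43.5 ± 2.87 to 117 ± 1.54 CPM (1.43 ± 0.0453 on the log2 scale, adjusted p = 2.91e-18). Sele, which encodes E-selectin, was at 9.07, 7.9 and 9.4 CPM in the untreated and 43.8, 41.9 and 43.5 CPM in the IL-17 libraries (2.29 ± 0.0589 on the log2 scale, adjusted p = 2.61e-20). Endothelial markers were present in these libraries, and which cells held the mRNAs of these adhesion genes was not tested. The supply of arginine and tetrahydrobiopterin, the substrate and the cofactor of the nitric oxide synthase Nos2, runs through the transporter Slc7a2, at 115, 111 and 112 CPM in the untreated and 847, 834 and 865 CPM in the IL-17 libraries (2.92 ± 0.0384 on the log2 scale, adjusted p = 2.60e-26), and the enzyme Gch1, from 28.8 ± 0.754 to 57.7 ± 3.37 CPM (1.00 ± 0.057 on the log2 scale, adjusted p = 3.97e-13). Odc1, the first enzyme of polyamine synthesis, rose from 203 ± 5.04 to 491 ± 22.8 CPM (1.28 ± 0.0445 on the log2 scale, adjusted p = 3.60e-16). Of growth factors, which moved both ways, higher ones were Fgf7 from 35.7 ± 2.21 to 92.5 ± 3.25 CPM (1.37 ± 0.0522 on the log2 scale, adjusted p = 1.34e-16), Gdnf from 5.06 ± 0.241 to 13.4 ± 0.509 CPM (1.40 ± 0.0992 on the log2 scale, adjusted p = 3.04e-11) and Ereg from 195 ± 3.99 to 494 ± 14.3 CPM (1.34 ± 0.0312 on the log2 scale, adjusted p = 3.36e-21). Receptors that sense inflammation rose as well, namely Il1r1 (0.80 ± 0.0317 on the log2 scale, adjusted p = 2.67e-16), Osmr (0.60 ± 0.0412 on the log2 scale, adjusted p = 2.35e-11), Tlr2 (1.89 ± 0.0808 on the log2 scale, adjusted p = 7.93e-15), Cd40 (1.47 ± 0.0872 on the log2 scale, adjusted p = 9.40e-13) and the death receptor Fas (1.30 ± 0.0617 on the log2 scale, adjusted p = 1.11e-14). The pentraxin Ptx3 (from 434 ± 20.5 to 1934 ± 16.2 CPM, 2.16 ± 0.0344 on the log2 scale, adjusted p = 8.86e-25), the mitochondrial superoxide dismutase Sod2 (from 59.9 ± 1.01 to 171 ± 4.62 CPM, 1.51 ± 0.0392 on the log2 scale, adjusted p = 3.06e-20), the metallothionein Mt2 (1.41 ± 0.0577 on the log2 scale, adjusted p = 2.36e-13) and Angptl4, an inhibitor of lipoprotein lipase (1.97 ± 0.0346 on the log2 scale, adjusted p = 7.40e-24), were higher.

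Genes of developmental signalling moved both ways. Ptch1, the Hedgehog receptor that Hedgehog signalling itself induces, was at 19.6, 15.5 and 18.5 CPM in the untreated and 113, 112 and 107 CPM in the IL-17 libraries (2.63 ± 0.0633 on the log2 scale, adjusted p = 9.73e-21), and its response was larger than under Scrambled by 0.90 ± 0.0852 on the log2 scale, adjusted p = 1.82e-07. Of the BMP branch, Bmp4 fell from 48.3 ± 1.27 to 23.7 ± 0.996 CPM (-1.03 ± 0.0655 on the log2 scale, adjusted p = 3.90e-12), Smad9 from 10.4 ± 0.702 to 5.01 ± 0.156 CPM (-1.06 ± 0.09 on the log2 scale, adjusted p = 1.08e-09), Smad6 from 165 ± 0.708 to 115 ± 4 CPM (-0.51 ± 0.0365 on the log2 scale, adjusted p = 3.27e-11) and Bambi, a pseudoreceptor that dampens it, from 9.51 ± 0.939 to 4.08 ± 0.409 CPM (-1.22 ± 0.0901 on the log2 scale, adjusted p = 7.20e-11), while the BMP target Id1 did not pass (from 46.9 ± 1.75 to 47 ± 1.69 CPM, adjusted p = 1) and Id2 rose by 0.43 on the log2 scale (adjusted p = 1.04e-10). Inhbb, which encodes an activin subunit, fell from 113 ± 2.8 to 49.6 ± 2.43 CPM (-1.19 ± 0.0684 on the log2 scale, adjusted p = 4.14e-12). Rdh10, which makes retinaldehyde, had a larger response under siR-1 than under Scrambled (1.01 ± 0.11 on the log2 scale, adjusted p = 1.71e-06).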
